A study of Juglans regia with 15 samples.

Results

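The endopleura is the thin skin around the walnut kernel, and it develops from the seed coat of the mother tree while the embryo fills the space inside it. In these endopleura libraries a glutelin gene, JreChr03G12610, differed several-fold between replicates of a single stage, and 100 other genes were taken here because they rose and fell with it from replicate to replicate. They were chosen from 39414 annotated genes in 3 steps: 22310 genes had at least 1 FPKM (a level scaled to gene length and library size) in 3 or more libraries, 1740 of these had a mean below 1 FPKM at 35 days after pollination (DAP), and the 100 with the highest Pearson correlation were kept. For that correlation the stage mean of log2(FPKM + 1) was subtracted from each value, and the 12 libraries from 63 DAP on were used. JreChr03G12610 itself, the second glutelin gene JreChr03G12612 and the oleosin gene JreChr12G10222 were left out by name. The measured values therefore chose these members, and their correlations, their replicate patterns and their low levels at 35 DAP are given as a description, with no test.

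All 15 libraries came from endopleura of nuts of the walnut (Juglans regia) cultivar Linzaoxiang, with no treatment. The 5 groups are the stages 35, 63, 91, 119 and 147 DAP, each with 3 replicates, and every replicate was a mixture of endopleuras from 7 nuts. Whether the nuts of different replicates came from different trees is not given in the sources used here, so the spread between replicates covers what differs between such pools.

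Glutelins are 11S globulins, proteins that seeds lay down in vacuoles as a reserve of nitrogen and amino acids. Oleosins coat the oil bodies in which seeds keep triacylglycerol, and late embryogenesis abundant (LEA) proteins accumulate as seeds mature and lose water. In the walnut kernel these reserves lie mostly in the cotyledons of the embryo, whereas a seed coat is known for flavonoids and condensed tannins, made by chalcone synthase, leucoanthocyanidin dioxygenase and anthocyanidin reductase.

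The libraries were of similar depth. The steps between low FPKM values put relative depth between 0.856 and 1.15 of the median library, and FPKM sums ran from 851621 to 1113620. Correlations between libraries of 1 stage were 0.964 to 0.992 across genes. Among the fixed markers of the seed coat, chalcone synthase (JreChr02G10304) and JrANR (JreChr09G12363), the anthocyanidin reductase that the study relates to endopleura colour, were at 47.8 FPKM or more in all libraries, and leucoanthocyanidin dioxygenase (JreChr03G12442) was at 2.53 FPKM or more. The fixed storage markers were both glutelins, the oleosin and JrFAD2 (JreChr13G11197), a fatty acid desaturase that makes linoleic acid. Their summed level was 6.18 to 23.4 FPKM at 35 DAP and 1708 to 19888 FPKM later, so transcripts of seed storage were present in every endopleura library from 63 DAP on. The libraries that stood apart in it were replicate 2 at 119 DAP with 19888 FPKM, against 6310 and 3495 FPKM in replicates 1 and 3, and replicate 3 at 63 DAP with 6711 FPKM, against 2075 and 1868 FPKM.

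The glutelin gene JreChr03G12610 set the pattern that the members follow. It was at 0.0624, 0.110 and 0 FPKM in replicates 1, 2 and 3 at 35 DAP. At 63 DAP it stood at 584, 601 and 1402 FPKM and at 91 DAP at 1921, 1160 and 1476 FPKM. The later values were 2475, 7406 and 1325 FPKM for 119 DAP, then 250, 671 and 1324 FPKM for 147 DAP. Replicate 3 was the high library at 63 and 147 DAP, replicate 2 at 119 DAP and replicate 1 at 91 DAP. Of the gene's sum of squares within stages, 42.9% came from 119 DAP, 39.5% from 147 DAP, 14.0% from 63 DAP and 3.60% from 91 DAP, so the choice of members rested mainly on the last 2 stages. Genes with measurable levels there were favoured, so tests of single members for a rise into 119 or 147 DAP are not independent of the choice.

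Correlations of the 100 members with glutelin ran from 0.956 to 0.726, with a median of 0.795, over 12 libraries that share their stage means and depths. Over all 1737 ranked genes that were low at 35 DAP the median was 0.0737, and 34 of them had a correlation at or below the negative of the lowest member value. A correlation of at least the lowest member value was held by 5.76% of the genes low at 35 DAP and by 1.70% of the other tested genes (349 of 20570). The list was cut within a continuous range: the last member, JreChr07G12358, had r = 0.7258, and the first gene outside, JreChr09G10583, had r = 0.7257. Next inside were JreChr03G10221 (r = 0.728) and JreChr06G10594 (r = 0.734), and next outside were JreChr14G10613 (r = 0.725) and JreChr05G11236 (r = 0.724).

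**Figure D1:**
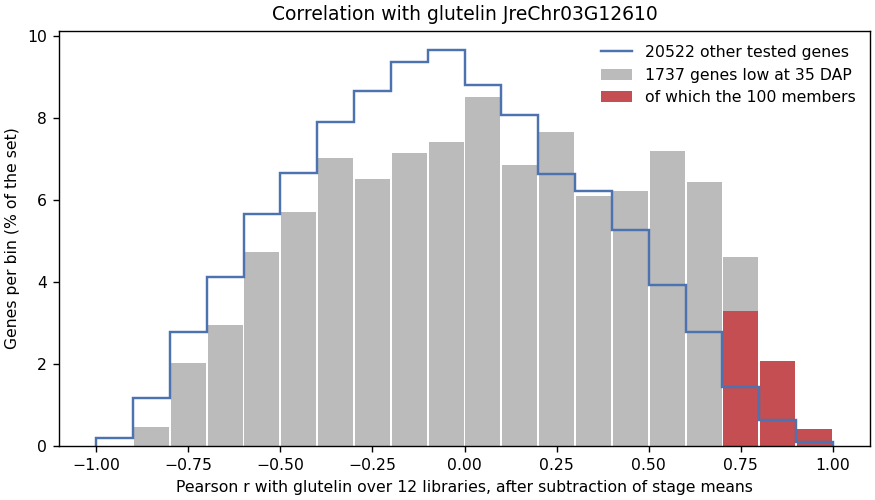
Histogram of Pearson's r between each gene and glutelin JreChr03G12610 over 12 libraries after subtraction of stage means, in bins of 0.1, with the share of each gene set on the vertical axis in percent. Grey bars are the 1737 ranked genes low at 35 DAP, red parts of the bars are the 100 members, and the blue line is the 20522 other tested genes for which r could be computed. The members form the right edge of a broad distribution, from 0.726 to 0.956.

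The members varied in the same libraries as one another. Of the 4950 pairs of members every one had a positive correlation of stage deviations, with a median of 0.681 and a range of 0.130 to 0.982, against a median of 0.00859 among the other genes low at 35 DAP. All members were chosen for likeness to 1 profile, which makes likeness to each other part of the choice. At 119 DAP, replicate 2 was the highest of its stage for 92 members and replicate 3 the lowest for 89. At 147 DAP, replicate 3 was the highest for 94 members and replicate 1 the lowest for 79. The earlier stages were less uniform: replicate 3 was the highest at 63 DAP for 74 members, and replicate 1 at 91 DAP for 50 members, with replicate 3 the highest for 36.

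The size of these differences also depended on the stage. The median range between the highest and lowest replicate, on the log2(FPKM + 1) scale, was 0.58 for 63 DAP, 0.49 for 91 DAP, 1.27 for 119 DAP and 0.88 for 147 DAP. The other genes low at 35 DAP had median ranges of 0.46, 0.49, 0.64 and 0.60 in the same stages. Replicate 2 at 119 DAP held the highest level of all 15 libraries for 43 members, and replicate 3 at 147 DAP for 46 members.

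**Figure D2:**
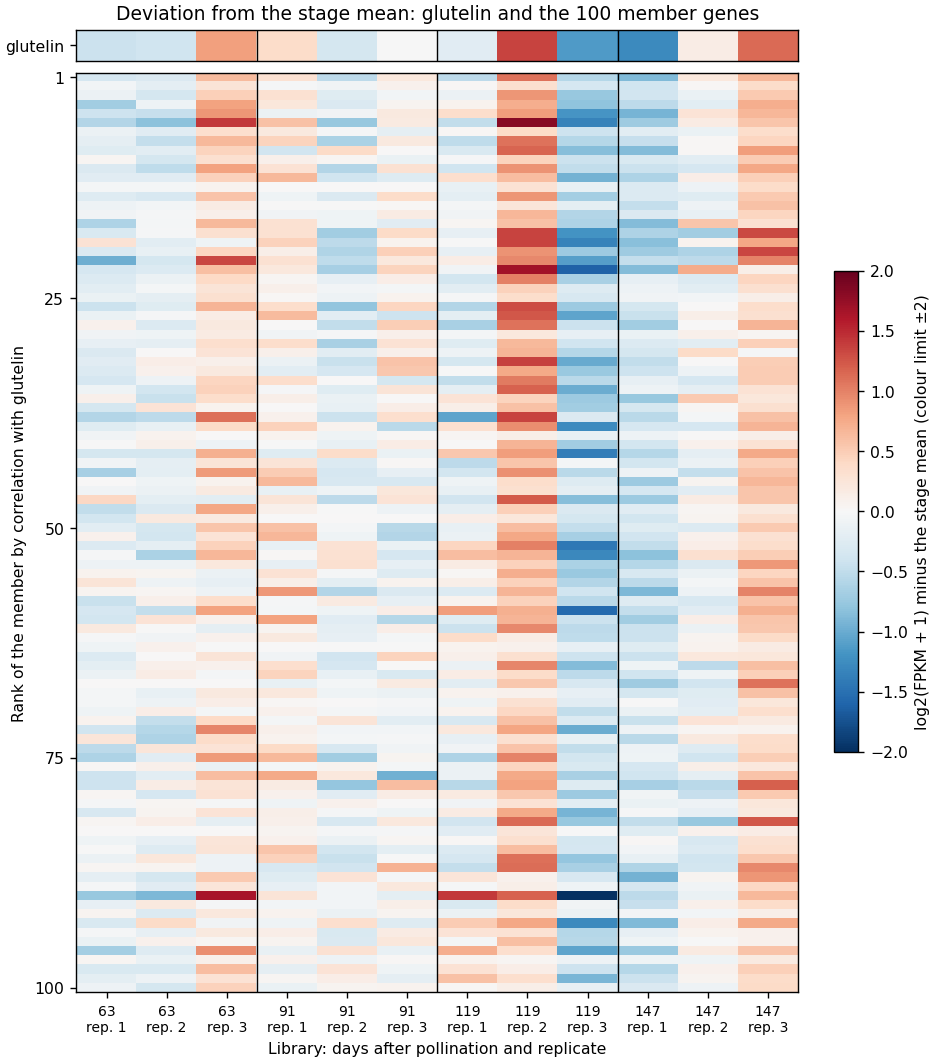
Heat map of log2(FPKM + 1) minus the stage mean in the 12 libraries from 63 to 147 DAP, for glutelin JreChr03G12610 in the upper strip and for the 100 members below it, ordered by their correlation with glutelin. Red is above and blue below the stage mean, with colours limited at ±2. Replicate 2 at 119 DAP was above its stage mean in 100 members and replicate 3 at 147 DAP in 99, whereas replicate 3 at 119 DAP was above it in 0 members.

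The fixed markers of the seed coat, whose sum was mostly JrANR and chalcone synthase, moved the other way in part of these libraries. The summed level of the 3 seed coat markers at 119 DAP was 901, 406 and 877 FPKM in replicates 1, 2 and 3, so the library with the highest member levels had the lowest sum. The same held for 91 DAP, with 155, 168 and 242 FPKM and the highest member levels in replicate 1. It did not hold for 63 DAP, with 366, 394 and 390 FPKM, or for 147 DAP, with 1280, 2150 and 1348 FPKM, since replicate 3 had the highest member levels there. Correlations of the members with JrANR over the same 12 libraries were negative for all 100 members, with a median of -0.58 against -0.03 in the other genes low at 35 DAP. For chalcone synthase the median over members was -0.29, with 5 positive, and for leucoanthocyanidin dioxygenase -0.28, with 10 positive. Glutelin itself had r = -0.53, -0.27 and -0.29 with these 3 genes in this order. The members were chosen to follow glutelin, so these signs follow largely from the choice. Of the other tested flavonoid genes of the seed coat, JreChr11G10794 and JreChr11G10846 had r = -0.36 and -0.49 with glutelin, but JreChr13G10907 had r = 0.445. In bulk libraries such as these, fewer cells of a type and less RNA per cell cannot be told apart, and the part that the amount of embryo or storage tissue in a sample had in these levels was not tested.

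Among storage genes, likeness to the members was unequal. The second glutelin, JreChr03G12612, had r = 0.946 with the first and a median of 0.722 with the members, all positive. JrFAD2, which its 35 DAP level kept out of the ranking, had r = 0.780 with glutelin and a median of 0.651 with the members, also positive for all 100. The members were chosen for likeness to glutelin, so positive values with genes that follow glutelin are largely part of the choice. The oleosin gene JreChr12G10222 had r = 0.343 with glutelin and a median of 0.368 with the members, of which 94 were positive. Its FPKM values were 433, 927 and 384 at 119 DAP, like glutelin highest in replicate 2, but 1335, 666 and 1150 at 147 DAP, where replicate 1 was the highest and glutelin was lowest in replicate 1.

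The members covered a wide range of levels. In its highest stage 1 member had a mean below 1 FPKM, 60 had 1 to under 10, 29 had 10 to under 100 and 10 had 100 FPKM or more. The most abundant member held 59.1% of the members' summed mean FPKM over the 12 libraries, and the 5 most abundant held 82.9%. At 35 DAP, 21 members were listed at 0 FPKM in all 3 libraries. Together the members made up 0.00343% to 0.00410% of all FPKM at 35 DAP, 0.181% to 0.635% at 63 DAP, 0.277% to 1.90% at 119 DAP and 0.228% to 0.447% at 147 DAP.

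JreChr04G11776 was the most abundant member at 63, 91 and 119 DAP and number 6 in correlation (r = 0.912). The gene lies on chromosome 4 at 36115866 to 36118039 and has no description in the study's tables. Its FPKM values were 0.227, 0.385 and 0.595 at 35 DAP, 1165, 990 and 4640 at 63 DAP, 6113, 2407 and 4621 at 91 DAP, 2753, 13691 and 1528 at 119 DAP, and 135, 249 and 328 at 147 DAP. All libraries at 147 DAP lay below all libraries of the 3 stages before, which overlapped with one another. It fell by 4.11 ± 0.71 (SE) on the log2 scale from 119 to 147 DAP (limma, adjusted p = 0.000497), while the changes of 1.22 ± 0.71 from 63 to 91 DAP and -0.08 ± 0.71 from 91 to 119 DAP did not pass the test (adjusted p = 0.231 and 0.967).

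JreChr03G12609 had the largest fall of all members. It lies on chromosome 3 at 42478189 to 42481110, 1904 bases from glutelin JreChr03G12610 with no annotated gene between them, and whether reads of one were counted for the other was not tested. FPKM was 376, 396 and 726 at 63 DAP, 940, 514 and 1101 at 91 DAP, 571, 1929 and 196 at 119 DAP, and 2.48, 9.66 and 5.89 at 147 DAP, after 0 in all libraries at 35 DAP. The stages 119 and 147 DAP did not overlap, and the log2 change between them was -6.57 ± 0.62 (limma, adjusted p = 3.77e-06). Glutelin itself fell by 2.25 ± 0.60 over the same step (limma, adjusted p = 0.00957). That call was lost without replicate 1 at 147 DAP (adjusted p = 0.0524) and with only the libraries of both stages in the fit (adjusted p = 0.104). In the last stage glutelin still measured 250 to 1324 FPKM, where its neighbour measured 2.48 to 9.66 FPKM.

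JreChr15G11571 had the next largest fall among members whose stages did not overlap. At 119 DAP it was at 113, 198 and 46.9 FPKM, and at 147 DAP at 1.78, 1.68 and 6.67 FPKM. Its log2 change was -4.74 ± 0.58 (limma, adjusted p = 3.36e-05).

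The other abundant members did not fall at the last step. JreChr14G10033 was at 46.3, 53.4 and 94.7 FPKM at 63 DAP, at 400, 272 and 120 FPKM at 91 DAP, at 607, 1114 and 417 FPKM at 119 DAP and at 566, 659 and 1100 FPKM at 147 DAP. No library of 91 DAP overlapped with 63 or 119 DAP, and the libraries of 119 and 147 DAP overlapped. JreChr14G10033 rose from 63 to 91 DAP by 1.92 ± 0.44 (limma, adjusted p = 0.00527) and from 91 to 119 DAP by 1.47 ± 0.44 (adjusted p = 0.0326). The second rise did not pass the test without replicate 1 or 2 at 119 DAP (adjusted p = 0.0666 and 0.125) or without replicate 2 or 3 at 91 DAP (adjusted p = 0.0635 and 0.117). It also did not pass with only both stages in the fit (adjusted p = 0.153). Its change from 119 to 147 DAP was 0.18 ± 0.44 (adjusted p = 0.793).

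JreChr10G11443 was at 45.0, 31.1 and 53.5 FPKM at 91 DAP, at 81.8, 437 and 140 FPKM at 119 DAP and at 159, 226 and 349 FPKM at 147 DAP. Its libraries at 119 DAP were all above those at 91 DAP, with a rise of 2.00 ± 0.53 (limma, adjusted p = 0.0188) that did not pass without replicate 2 at 119 DAP or replicate 2 at 91 DAP (adjusted p = 0.0667 and 0.0767). Nor did this rise pass with only both stages in the fit (adjusted p = 0.103). JreChr01G12097, number 4 in correlation (r = 0.916), was at 33.3, 51.1 and 96.6 FPKM at 63 DAP and at 135, 168 and 321 FPKM at 147 DAP. These libraries did not overlap, and the rise was 1.80 ± 0.41 (adjusted p = 0.00163), although none of the single steps between them passed the test. At 147 DAP the leading members were JreChr14G10033 with 775 ± 285 (SD, n = 3), JreChr11G10534 with 451 ± 146 and JreChr01G11267 with 329 ± 124 FPKM, the last 2 of them named here after their values were seen.

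**Figure D3:**
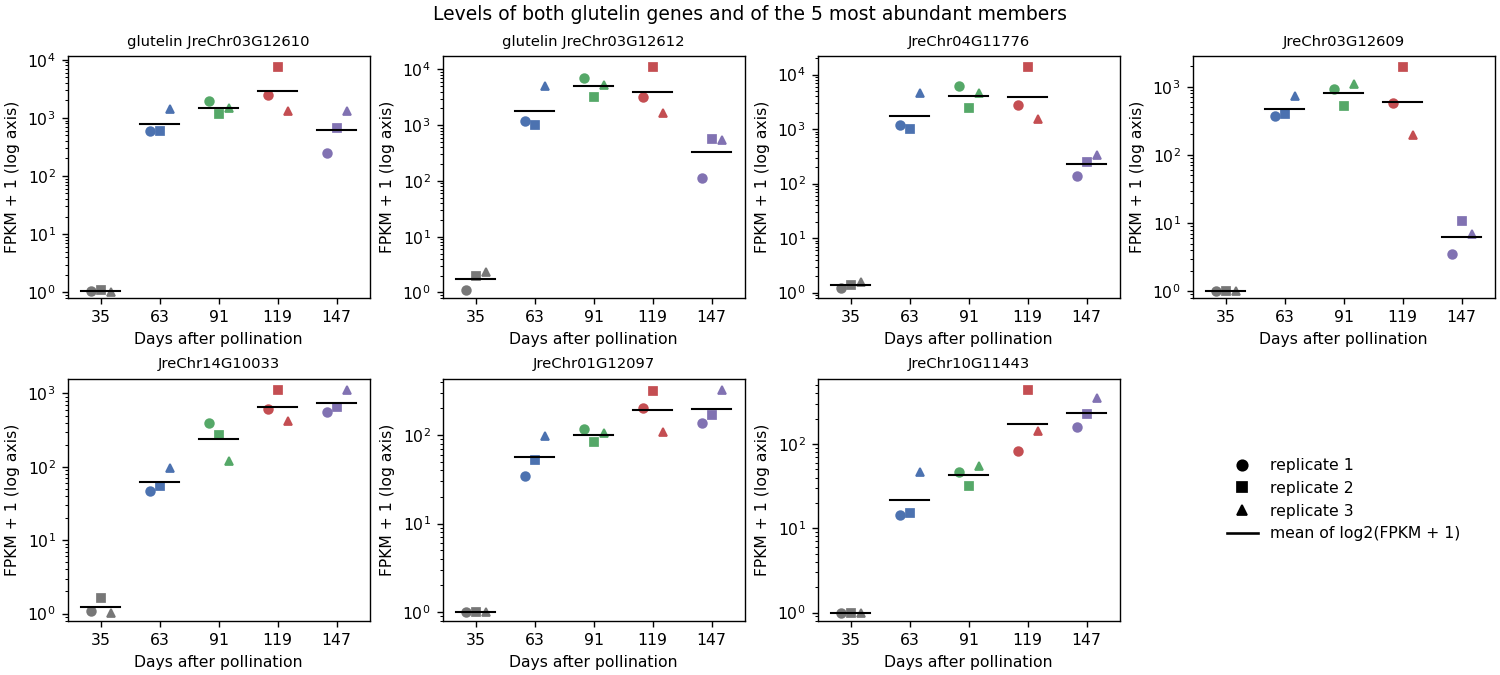
FPKM + 1 on a log axis in each of the 15 libraries for both glutelin genes and the 5 most abundant members, by days after pollination. Symbols are replicates 1, 2 and 3 and bars are means of log2(FPKM + 1). JreChr04G11776 and JreChr03G12609 dropped at 147 DAP, to 237 and 6.01 FPKM on average, whereas JreChr14G10033, JreChr01G12097 and JreChr10G11443 had stage means of 208 FPKM or more at both 119 and 147 DAP.

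Only 7 members had a description in the study's tables, which describe 7.02% of all genes, so the roles of most members are not known from the sources used here. JreChr01G12905 is described as embryonic protein DC-8, a LEA protein first known from carrot embryos. Its FPKM values were 0, 0.185 and 0.0591 at 35 DAP, 2.20, 1.89 and 4.46 at 63 DAP, 7.96, 4.81 and 3.03 at 91 DAP, 30.8, 53.4 and 24.4 at 119 DAP, and 42.6, 41.5 and 72.9 at 147 DAP. The libraries of 91 and 119 DAP were far apart, and those of 119 and 147 DAP overlapped. JreChr01G12905 rose by 2.57 ± 0.34 from 91 to 119 DAP (limma, adjusted p = 0.000212), and its further change of 0.55 ± 0.34 did not pass the test (adjusted p = 0.236).

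JreChr13G10859 is described as a lecithine cholesterol acyltransferase, and its Arabidopsis counterpart in the tables is PDAT2, of the enzyme family that moves an acyl group from a phospholipid to diacylglycerol to form storage oil. It was at 10.3, 9.30 and 8.82 FPKM at 91 DAP, at 21.6, 33.4 and 9.69 FPKM at 119 DAP and at 5.49, 4.91 and 6.55 FPKM at 147 DAP. Replicate 3 at 119 DAP lay within the range of 91 DAP, but all libraries of 119 DAP were above those of 147 DAP. The fall at the last step was -1.62 ± 0.31 (limma, adjusted p = 0.00119). The rise before it, 0.95 ± 0.31, was at the edge of the threshold (adjusted p = 0.0479) and did not pass when any single library other than replicate 3 at 119 DAP was left out, with adjusted p between 0.0509 (without replicate 1 at 63 DAP) and 0.183 (without replicate 2 at 119 DAP). This rise also did not pass with only both stages in the fit (adjusted p = 0.213). Nor did it pass with quantile normalization, equal FPKM sums or median-ratio scaling (adjusted p = 0.0596, 0.075 and 0.0561). With a pseudocount of 0.1, no filter or the replicate number as a block it was lost too (adjusted p = 0.0722, 0.123 and 0.0696). The adjoining gene JreChr13G10860 has the same description, with means of 23.2, 39.3 and 9.80 FPKM in these stages, and reads that the counting could not split between both copies would be shared.

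JreChr07G12899 is described as a mitochondrial cysteine synthase, which makes cysteine from O-acetylserine and sulfide. It was at 4.83, 3.14 and 7.19 FPKM at 91 DAP, at 9.40, 33.7 and 11.2 FPKM at 119 DAP and at 3.01, 5.57 and 9.44 FPKM at 147 DAP. All libraries of 119 DAP were above those of 91 DAP, and those of 119 and 147 DAP overlapped narrowly. It rose by 1.49 ± 0.43 and then fell by 1.33 ± 0.43 (limma, adjusted p = 0.0264 and 0.0252). Without replicate 2 at 119 DAP neither passed the test (0.95, adjusted p = 0.095, and -0.79, adjusted p = 0.108). The rise also did not pass without replicate 1 or 2 at 91 DAP (adjusted p = 0.062 and 0.11), nor the fall without replicate 1 at 147 DAP (adjusted p = 0.121). With only both stages of each step in the fit, neither change passed (adjusted p = 0.135 and 0.137).

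Genes described as regulators were low until late. JreChr15G12155 encodes an AP2 domain protein, and its Arabidopsis counterpart, RAP2.1, is a DREB-type transcription factor of water-deficit responses. It was at 0.778, 1.19 and 0.379 FPKM at 119 DAP and at 5.35, 4.02 and 6.77 FPKM at 147 DAP. These libraries did not overlap, and the log2 change was 1.84 ± 0.19. The gene reached the filter of 1 FPKM in 3 libraries only through those of 147 DAP, so no test is given for this step.

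JreChr06G11631, described as related to ethylene-responsive proteins, has a bHLH transcription factor as its Arabidopsis counterpart. At 91 DAP it was at 0, 0 and 0.137 FPKM, at 119 DAP at 0.606, 1.57 and 0.889 FPKM and at 147 DAP at 1.80, 3.12 and 3.97 FPKM. None of these 3 stages overlapped, and the first rise, 0.93 ± 0.21, passed the test (limma, adjusted p = 0.00691). JreChr15G10787, an F-box protein whose Arabidopsis counterpart SNEEZY acts in gibberellin signalling, was at 0.0775, 0 and 0.353 FPKM at 63 DAP and at 1.12, 1.51 and 2.77 FPKM at 147 DAP. The log2 change between these non-overlapping stages was 1.26 ± 0.26. Both JreChr06G11631 and JreChr15G10787 also reached the filter only through 147 DAP, and their changes into that stage are given with no test.

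JreChr01G12424, described only as an expressed protein, was at 11.6, 10.6 and 10.4 FPKM at 91 DAP, at 28.4, 36.1 and 18.9 FPKM at 119 DAP and at 52.2, 50.1 and 72.7 FPKM at 147 DAP. No libraries of these stages overlapped. JreChr01G12424 rose at both steps, by 1.23 ± 0.20 and by 1.07 ± 0.20 (limma, adjusted p = 0.000922 and 0.000997).

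**Figure D4:**
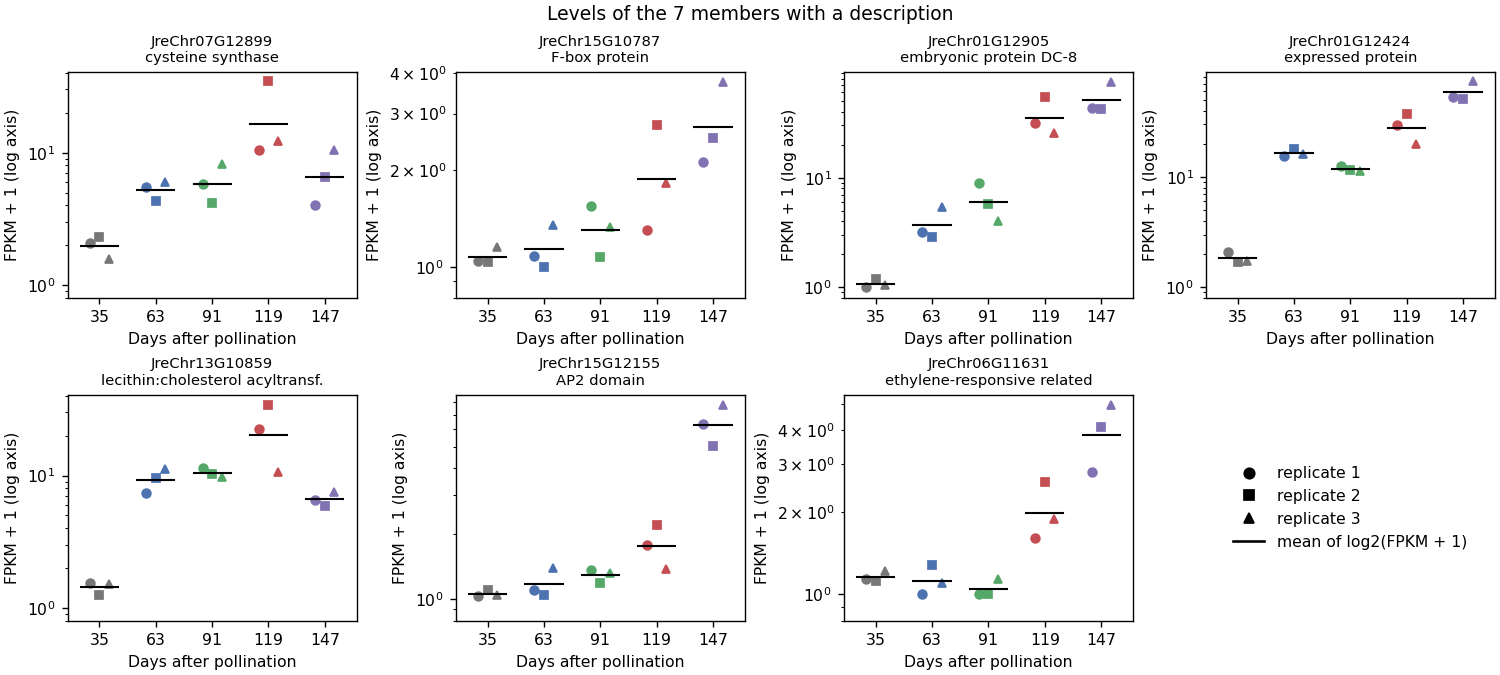
FPKM + 1 on a log axis in each of the 15 libraries for the 7 members with a description in the study's tables, by days after pollination. Symbols are replicates 1, 2 and 3 and bars are means of log2(FPKM + 1). JreChr13G10859 and JreChr07G12899 were highest at 119 DAP, with means of 21.6 and 18.1 FPKM, and the other 5 were highest at 147 DAP.

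Differences between stage means from 63 DAP on were tested for all 22310 genes with limma. The ranking did not use them directly, but it favoured genes with measurable levels at 119 and 147 DAP. Rises into these stages, in counts or in single members, are therefore not independent of the choice. The filter on low values also used levels: 34 members, against 39.8% of the genes low at 35 DAP, no longer reached it when the libraries of a stage were set aside. Of these, 24 needed 147 DAP, 11 needed 119 DAP, 4 needed 63 DAP and 1 needed 91 DAP, and 6 of them needed both 119 and 147 DAP. A change into or out of such a stage was favoured by the filter. As an alternative chosen after seeing the data, the limma counts of each step are also given without members that needed one of the stages compared. The counts of members without overlap between libraries, the joint counts over the last 2 steps and the counts by highest stage still include them. From 63 to 91 DAP, 14 of 100 members were higher and 7 lower at an adjusted p under 0.05, against 7.59% and 18.9% of all tested genes and 16.6% and 9.96% of the genes low at 35 DAP. Without the members that needed one of these stages 13 of 95 were higher and 4 lower, against 17.8% and 5.16% of the genes low at 35 DAP under the same limit. Single libraries moved the counts: 9 were higher without replicate 1 at 63 DAP, 4 were lower without replicate 3 at 63 DAP or replicate 1 or 2 at 91 DAP, and 11 were lower without replicate 3 at 119 DAP. Libraries of both stages did not overlap in 22 members that were higher and 16 that were lower, against 13.3% and 26.9% of all tested genes. The members' median log2 change was 0.14, against -0.10 over all tested genes. Besides JreChr14G10033, the named rise was that of JreChr08G11166, from 1.60, 1.14 and 3.66 FPKM at 63 DAP to 22.9, 10.3 and 19.1 FPKM at 91 DAP. Its libraries did not overlap, and it rose by 2.57 ± 0.42 (adjusted p = 0.000495).

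Lower at 91 DAP without overlap were JreChr02G11868 and JreChr10G11402. JreChr02G11868 was at 6.80, 11.6 and 8.16 FPKM at 63 DAP and at 1.76, 2.71 and 1.47 FPKM at 91 DAP, without overlap. Its change of -1.72 ± 0.48 (limma, adjusted p = 0.0159) did not pass without replicate 2 at 63 DAP (adjusted p = 0.0622), and it was back at 11.0, 13.4 and 2.47 FPKM at 119 DAP. JreChr10G11402 went from 1.09, 1.41 and 4.03 FPKM to 0.282, 0.188 and 0.114 FPKM and stayed at or below 0.992 FPKM later. It reached the filter only through 63 DAP, so its change of -1.30 ± 0.28 is given with no test.

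From 91 to 119 DAP, 41 members were higher and 0 lower, against 9.65% and 8.65% of all tested genes and 24.8% and 4.32% of those low at 35 DAP. Without the members that needed one of these stages 38 of 88 were higher, against 24.8% of the genes low at 35 DAP under the same limit. Without overlap between libraries 48 were higher and 1 lower, against 15.2% and 16% of all tested genes. The members' median log2 change was 0.93, that of all tested genes 0. The ranking favoured genes with measurable levels at 119 and 147 DAP, where most of glutelin's variation lay, so this count is not independent of the choice of members. It rested on few libraries: without replicate 2 at 119 DAP or without replicate 2 at 91 DAP 25 members were called, without replicate 3 at 119 DAP 56, and with only the 6 libraries of both stages in the fit 23, all of them higher.

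JreChr01G10637 and JreChr09G12478 had the largest rises from 91 to 119 DAP. JreChr01G10637 was at 1.13, 0.617 and 0.0623 FPKM at 91 DAP and at 13.4, 21.2 and 3.88 FPKM at 119 DAP, a rise of 2.91 ± 0.45 (limma, adjusted p = 0.000617). JreChr09G12478 was at 0, 0.383 and 0 FPKM and then at 11.6, 8.60 and 2.68 FPKM, a rise of 2.78 ± 0.46 (adjusted p = 0.00107). In both genes replicate 3 was the lowest at 119 DAP but still above every library of 91 DAP.

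From 119 to 147 DAP the members divided. In all, 30 were higher and 25 lower, against 14.1% and 21.8% of all tested genes and 33.1% and 15.7% of the genes low at 35 DAP. Without the members that needed 119 or 147 DAP the higher calls no longer led, with 14 of 71 higher and 23 lower, against 22.8% and 18% of the genes low at 35 DAP under the same limit. Without overlap 27 were higher and 21 lower, against 17.8% and 25.9% of all tested genes. The medians were 0.03 for the members and -0.10 for all tested genes. Which direction was the more frequent depended on single libraries: 22 were higher and 37 lower without replicate 3 at 119 DAP, 22 higher and 30 lower without replicate 3 at 147 DAP, and 37 higher and 19 lower without replicate 2 at 119 DAP. With only the 6 libraries of both stages in the fit, 20 were higher and 15 lower.

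Of the 41 members that rose from 91 to 119 DAP, 13 rose again, 12 fell and 16 did not pass the test at the last step. Of the 431 genes low at 35 DAP that rose from 91 to 119 DAP 43.6% rose again and 19.3% fell, and of all 2152 such genes 32.2% and 20.9%. The highest stage mean lay at 147 DAP for 49 members, at 119 DAP for 43, at 63 DAP for 5 and at 91 DAP for 3. Among all genes low at 35 DAP 49.3% were highest at 147 DAP and 21.1% at 119 DAP. Of the 49 members highest at 147 DAP 30 were called higher than at 119 DAP, and of the 43 highest at 119 DAP 23 were called lower at 147 DAP and 20 were not called. Grouping by the highest stage largely fixed the direction of these calls in advance. The calls also include members that reached the filter only through 119 or 147 DAP.

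The median correlation with glutelin was 0.781 in the members highest at 147 DAP and 0.806 in those highest at 119 DAP. The 43 members highest at 119 DAP, without JreChr04G11776, summed to 1105, 2990 and 515 FPKM in replicates 1, 2 and 3 at 119 DAP and to 119, 181 and 276 FPKM at 147 DAP. The 49 members highest at 147 DAP summed to 1272, 2661 and 956 FPKM and to 2280, 2312 and 4073 FPKM. Both the replicate order and the direction between these stages follow from how the members and the 2 sets were chosen.

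**Figure D5:**
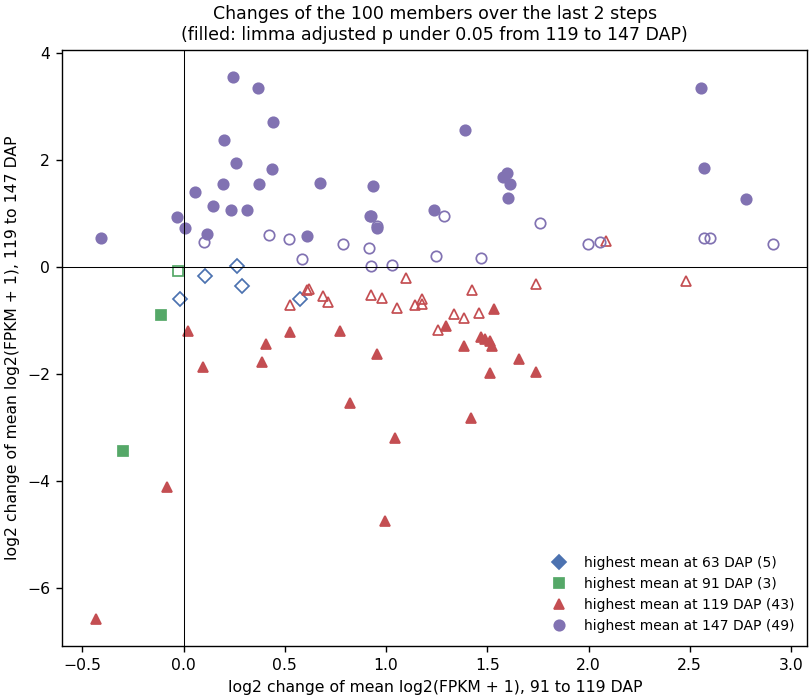
Change of mean log2(FPKM + 1) from 91 to 119 DAP (horizontal axis) and from 119 to 147 DAP (vertical axis) for the 100 members, 1 symbol each. Shapes and colours give the stage with the highest mean FPKM, and filled symbols passed limma at an adjusted p under 0.05 for the step from 119 to 147 DAP. Of the filled symbols 30 lie above 0 and 25 below, and JreChr03G12609 is the lowest, at -6.57. They include members that reached the filter on low values only through 119 or 147 DAP, a change that the filter favoured. Without such members 14 of 71 were higher and 23 lower.

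The 2 largest positive changes of the last step, among calls without overlap, were in genes that were scarce at every earlier stage. Not all rises began so low: JreChr11G10534 had a mean of 47.8 FPKM at 119 DAP and 451 FPKM at 147 DAP. JreChr03G10309 was at 0.303, 0.811 and 0.278 FPKM at 119 DAP and at 12.4, 13.5 and 23.8 FPKM at 147 DAP, and JreChr10G10599 at 0.270, 0.539 and 0.134 FPKM and at 8.60, 11.4 and 18.9 FPKM. Neither gene was above 0.811 FPKM in any library before 147 DAP. Both reached the filter on low values only through the libraries of 147 DAP, so the log2 changes of 3.55 ± 0.22 and 3.35 ± 0.21 are given with no test.

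Over the whole span from 63 to 147 DAP 55 members were higher and 12 lower, against 19.5% and 38.3% of all tested genes and 51.8% and 16.8% of the genes low at 35 DAP. Without the members that needed one of these stages 35 of 72 were higher and 9 lower, against 46.8% and 14.1% of the genes low at 35 DAP. Non-overlapping libraries were found in 55 higher and 15 lower members, against 21.9% and 41.3% of all tested genes. For this and the other steps from 63 DAP on, the share without overlap among genes low at 35 DAP was not computed. The members' median log2 change was 1.16 and that of all tested genes -0.21. The share of members that were higher was thus near that of the genes low at 35 DAP as a whole. From 35 to 63 DAP, where the low level was part of the choice, libraries did not overlap and were higher at 63 DAP in 55 members, against 26.1% of all tested genes and 49.3% of the genes low at 35 DAP.

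The highest correlations were found at low as well as high levels. JreChr07G10349, first with r = 0.956, was at 0.358, 0.392 and 1.64 FPKM at 63 DAP, at 3.54, 1.57 and 3.27 FPKM at 91 DAP, at 5.14, 17.6 and 4.93 FPKM at 119 DAP and at 1.12, 3.53 and 5.20 FPKM at 147 DAP, and listed at 0 in all libraries at 35 DAP. It lies on chromosome 7 at 15883738 to 15885527. None of its 3 single steps passed the test, while the change of 1.19 ± 0.45 from 63 to 147 DAP did (limma, adjusted p = 0.0358), between stages whose libraries overlapped. That call was lost without replicate 1 or 2 at 63 DAP (adjusted p = 0.114 and 0.107) or replicate 2 or 3 at 147 DAP (adjusted p = 0.0932 and 0.155). With only both stages in the fit it was also lost (adjusted p = 0.0544).

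JreChr03G11278, the second, was at 0.607, 0.955 and 0.241 FPKM at 119 DAP and at 1.29, 2.08 and 2.88 FPKM at 147 DAP, with no overlap. It did not reach the filter on low values without the libraries of 147 DAP, so its log2 change of 0.94 ± 0.20 is given with no test. JreChr01G12558, the third, was at 22.8, 15.2 and 17.5 FPKM at 91 DAP and at 58.0, 118 and 36.9 FPKM at 119 DAP. It rose by 1.74 ± 0.35 (limma, adjusted p = 0.00369, or 0.0603 with only both stages in the fit), with the 38.7, 46.2 and 73.0 FPKM of 147 DAP inside the range of 119 DAP.

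JreChr07G12749, number 5 in correlation, was at 1.25, 1.33 and 1.80 FPKM at 91 DAP and at 17.9, 25.5 and 5.57 FPKM at 119 DAP, where it rose by 2.60 ± 0.49 (limma, adjusted p = 0.00253). JreChr11G12350, the seventh, was highest at 119 DAP alone, with 2.37, 3.33 and 1.48 FPKM there, 0.374, 0.171 and 0.0583 FPKM before and 0.149, 0.213 and 0.703 FPKM after. The log2 changes were 1.47 ± 0.21 and -1.31 ± 0.21, with no overlap on either side and no test, since the gene reached the filter only through 119 DAP.

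JreChr08G11166, the eighth, was at 31.3, 96.2 and 29.7 FPKM at 119 DAP and at 11.1, 15.8 and 21.4 FPKM at 147 DAP. After its rise at 91 DAP it rose by 1.38 ± 0.42 and fell by 1.47 ± 0.42 (limma, adjusted p = 0.0361 and 0.0146). Without replicate 2 at 119 DAP neither passed (0.84, adjusted p = 0.133, and -0.93, adjusted p = 0.0588). The second rise was also lost without replicate 2 or 3 at 91 DAP or replicate 1 at 35 DAP (adjusted p = 0.149, 0.0516 and 0.0504) and with the replicate number as a block (adjusted p = 0.053), and the fall without replicate 1 at 147 DAP (adjusted p = 0.0665). With only both stages of each step in the fit, the second rise and the fall were lost as well (adjusted p = 0.16 and 0.0795).

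JreChr11G12167, the ninth, was at 8.73, 25.7 and 5.61 FPKM at 119 DAP, above its 2.63, 5.19 and 3.76 FPKM at 91 DAP, but the change of 1.33 ± 0.47 did not pass (limma, adjusted p = 0.0624). JreChr08G12093, the tenth, had a mean of 0.709 ± 0.388 FPKM (SD, n = 3) at 35 DAP and only 0.102 ± 0.0934 at 91 DAP. It was at 1.57, 2.55 and 0.947 FPKM at 119 DAP, above every library of 91 DAP, and rose by 1.25 ± 0.26 (adjusted p = 0.00496).

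The last 3 members inside the list differed in their course. JreChr07G12358 was at 2.93, 3.17 and 2.50 FPKM at 119 DAP and at 0.833, 1.09 and 1.91 FPKM at 147 DAP, without overlap. Its change of -0.79 ± 0.20 is given with no test, since it did not reach the filter without 119 DAP. JreChr06G10594 was at 5.96, 5.24 and 3.27 FPKM and then at 0.130, 0.779 and 1.34 FPKM, a fall of 1.77 ± 0.30 (limma, adjusted p = 0.000405). JreChr03G10221 was at 5.70, 4.63 and 1.37 FPKM and at 0.555, 1.19 and 1.70 FPKM, stages that overlapped, with a fall of 1.09 ± 0.33 (adjusted p = 0.0174) that was lost without replicate 1 or 2 at 119 DAP or replicate 1 at 147 DAP (adjusted p = 0.0873, 0.0628 and 0.0825). This fall was also lost with only both stages in the fit (adjusted p = 0.118). In the first of these genes the 3 libraries of 119 DAP were nearly level, and in the other genes replicate 1, not replicate 2, was the highest there.

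Members lay on all 16 chromosomes, with 16 on chromosome 1 and 12 on chromosome 3, which were 9.94% and 6.94% of the ranked genes low at 35 DAP there. Few were close together: 3 pairs of members lay within 100000 bases. JreChr14G11004 and JreChr14G11006 were next to each other, 11599 bases apart, with a correlation of deviations of 0.618. JreChr01G12456 and JreChr01G12458 lay 36392 bases apart with 1 gene between them and had a correlation of 0.970, and JreChr04G12454 and JreChr04G12495 lay 40845 bases apart with a correlation of 0.841. The median span from the first to the last annotated base was 1683 bases in the members, 1449 in the genes low at 35 DAP and 2994 in all tested genes.

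Of 17 listed genes of seed storage and oil, which include both glutelins, the oleosin and the member JreChr13G10859, 14 were tested. From 91 to 119 DAP 2 were higher and 1 lower, against 9.65% and 8.65% of all tested genes, and from 119 to 147 DAP 2 were higher and 7 lower, against 14.1% and 21.8%. The list's median log2 change was 0.37 at the first and -0.35 at the second of these steps, beside 0 and -0.10 over all tested genes. Among the 10 tested genes that were neither members nor left out by name, 1 was higher and 1 lower at the first step and 2 were higher and 4 lower at the second, the lower ones including JrFAD2 and JreChr13G10860. A LEA gene outside the members, JreChr01G10579, stood at rank 274 with r = 0.561 and was higher at 147 DAP, with a mean of 393 FPKM after 177 FPKM at 119 DAP (change 1.22 ± 0.39, limma, adjusted p = 0.025). That call was lost without replicate 1 or 3 at 119 DAP (adjusted p = 0.0669 and 0.107) or replicate 1 or 3 at 147 DAP (adjusted p = 0.0616 and 0.0913). With only both stages in the fit it was just lost (adjusted p = 0.0517). Of 4 tested genes of the lipid transfer and seed storage family, 1 was higher and 2 lower from 91 to 119 DAP, and 0 were higher and 2 lower from 119 to 147 DAP. In this family JreChr06G11418 had r = -0.87 with glutelin. A sugar transporter of the MtN3 family, JreChr05G12917, had r = -0.76. None of the 10 listed germin-like cupins had the level needed for the test.

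Flavonoid genes of the seed coat, listed for comparison, were higher from 91 to 119 DAP in 4 of 6 tested genes and lower in 0, against 9.65% and 8.65% of all tested genes. From 119 to 147 DAP 2 were higher and 0 lower, against 14.1% and 21.8%. The list medians were 1.46 and 0.67. JrANR (JreChr09G12363) rose at both steps, by 1.36 ± 0.22 and 1.51 ± 0.22 (limma, adjusted p = 0.000844 and 0.000132). Its values at 119 DAP, 342, 181 and 344 FPKM, were lowest in replicate 2, where 92 of the members were highest.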

How the data were processed

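Endopleura RNA of 15 libraries was sequenced on a NovaSeq 6000. Per the labels and the study's methods, HISAT2 2.1.0 mapped reads to the authors' J. regia assembly and StringTie 1.3.5 quantified genes, and the authors deposited 1 table of FPKM values without counts. Build name, annotation version and strand setting are not given in the sources used here. Coordinates are those of the deposited table. FPKM is scaled within a library, so a few very abundant transcripts lower all others.

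Values were analysed as log2(FPKM + 1). A fold change on this scale understates the change of genes near 1 FPKM. Genes with FPKM of at least 1 in 3 libraries were fitted with limma 3.58.1 (R 4.3.3), a mean per stage over all 15 libraries, trended empirical Bayes and Benjamini-Hochberg adjustment over 22310 genes. The code was tested on simulated data. Ranking used pandas 2.3.3. Roles were taken from annotation text in the study's tables, matched by gene identifier.

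The members and gene lists were chosen with earlier results of these data known. Members named are the 10 with the highest correlation, the 5 most abundant, those with a description, the 2 largest rises and falls per step among calls without overlap, and ranks 98 to 100. Alternatives covered pseudocount, scaling, filter, block, samples in the fit and each library left out.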

Additional observations from a re-analysis of the deposited data

How the results depend on the processing

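Of the 100 members 57 were kept after quantile normalization, 49 without 119 DAP, 49 without 147 DAP and 1 with the oleosin gene in place of glutelin. With a mean below 0.1 FPKM at 35 DAP 37 were kept, which were all members that met this limit. Leaving out single libraries kept 52 to 91, the lowest without replicate 1 at 147 DAP and 55 without replicate 2 at 119 DAP. With the named genes left out after the ranking, an alternative chosen after seeing the data, 98 were kept.

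Counts of changed members with 1 library left out were 15 to 26 from 63 to 91 DAP, 25 to 56 from 91 to 119 DAP, 48 to 59 from 119 to 147 DAP and 66 to 73 from 63 to 147 DAP. Without a filter on low values 13 members were called from 63 to 91 DAP and 26 from 91 to 119 DAP. With a mean of at least 5 FPKM only 35 members were tested, and 9, 22, 22 and 27 were called in the same order. With only both stages compared in the fit 23 were called from 91 to 119 DAP and 35 from 119 to 147 DAP. Without members that reached the filter only with 1 of both stages, an alternative chosen after seeing the data, 17, 38, 37 and 44 were called. Quantile normalization moved the median of all tested genes from 63 to 147 DAP from -0.21 to -0.03.

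Same-numbered libraries of different stages had correlations of deviations from -0.40 to 0.41, over 0.1 in 10 of 30 pairs (median -0.03). Differently numbered libraries were not compared, so whether replicate numbers pair the libraries was not tested. With the replicate number as a block 19, 36, 53 and 67 members were called, against 21, 41, 55 and 67 without it. Of 2118 values of the 30 named members under alternatives 1990 kept their status, 25 gained a call, 0 reversed and the rest lost a call. The 1990 include changes that were not called in either fit and steps given here with no test, so they are not a number of calls that held. The FPKM values carry no read counts, so low members have an unknown counting error.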
